A study of Drosophila melanogaster with 2 samples.

Results

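Where a pair of protein-coding genes is transcribed in opposite directions from neighbouring starts, a protein bound between the starts is close to both promoters at once. Peaks of CG4404 binding at such places were chosen by position: the summit of the peak had to lie within 500 bp of a transcription start site (TSS) of at least 1 plus-strand and at least 1 minus-strand protein-coding gene. Of the 3835 peaks of the authors' pooled thresholded list that lie on the 7 chromosome arms, 614 (16.01%) met this rule and are called divergent promoter peaks below. For comparison, 875 peaks had protein-coding starts of 1 strand only within 500 bp (one-strand promoter peaks), and 2346 had none. The rule used neither signal nor sequence, but it was set with earlier results of these data known.

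The material was whole Drosophila melanogaster embryos aged 0 to 4 hours of a strain that carries a CG4404-GFP insertion, and chromatin sonicated to 200 to 800 bp was immunoprecipitated with an antibody against GFP. There was 1 group with 2 biological replicates of the same strain, and no library from embryos without the tag or from input chromatin was used here. The binding seen is that of the tagged protein in all cells of the embryo at once, over a span that takes in the nuclear cleavage cycles and the start of zygotic transcription. The authors' thresholded lists held 2957 peaks on the arms in replicate 1 and 2479 in replicate 2.

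CG4404 is a protein of the MADF-BESS class, whose MADF domain resembles a Myb domain and binds DNA. The Drosophila genome is compact, and head-to-head genes with a short shared upstream region are common, above all among genes that every cell uses. Such promoters often carry sequence elements named for the factors or the motif screens that found them, among them the DRE bound by Dref, the BEAF-32 sites and the core promoter motifs Ohler 1, 6 and 7, rather than the TATA box and GAGA elements of many developmentally regulated genes.

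The whole stretch from the minus-strand to the plus-strand start is printed here for the 5 divergent promoter peaks of highest signal that lie between starts under 300 bp apart, were found in both replicates and are on an arm whose sequence is shown, because these are the places where both starts and the summit fit in 1 short stretch. All are plus-strand sequence of dm6, read from the minus-strand gene's start (left end) to the plus-strand gene's start (right end). Capitals mark 5 words searched on both strands: TATCGATA (the DRE), TATAAA, CATCNCTA and CAGCNCTA (cores of Ohler motif 7) and CAGCCCTG (a word close to the sites of the zinc-finger proteins pita and ZIPIC).
Tcs5/CHMP2B: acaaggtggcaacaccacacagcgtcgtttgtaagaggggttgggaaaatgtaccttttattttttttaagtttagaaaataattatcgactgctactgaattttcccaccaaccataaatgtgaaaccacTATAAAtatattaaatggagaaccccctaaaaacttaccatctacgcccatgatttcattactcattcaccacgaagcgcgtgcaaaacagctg
Atat/Shc: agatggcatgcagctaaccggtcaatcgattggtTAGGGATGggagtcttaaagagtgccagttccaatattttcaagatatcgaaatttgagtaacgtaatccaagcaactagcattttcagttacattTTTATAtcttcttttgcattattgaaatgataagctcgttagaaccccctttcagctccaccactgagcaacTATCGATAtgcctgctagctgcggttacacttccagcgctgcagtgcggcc
Art3/mRpS10: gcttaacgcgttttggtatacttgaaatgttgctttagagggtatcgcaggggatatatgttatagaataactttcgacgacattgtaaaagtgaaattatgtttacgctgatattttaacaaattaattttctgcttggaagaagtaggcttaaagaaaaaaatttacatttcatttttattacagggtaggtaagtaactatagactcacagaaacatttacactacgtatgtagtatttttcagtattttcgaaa
CG7601/CIA30: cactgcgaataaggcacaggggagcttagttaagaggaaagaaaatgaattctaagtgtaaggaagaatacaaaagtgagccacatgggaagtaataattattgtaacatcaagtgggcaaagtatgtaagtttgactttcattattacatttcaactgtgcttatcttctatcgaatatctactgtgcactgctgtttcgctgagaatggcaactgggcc
Reps/l(2)gd1: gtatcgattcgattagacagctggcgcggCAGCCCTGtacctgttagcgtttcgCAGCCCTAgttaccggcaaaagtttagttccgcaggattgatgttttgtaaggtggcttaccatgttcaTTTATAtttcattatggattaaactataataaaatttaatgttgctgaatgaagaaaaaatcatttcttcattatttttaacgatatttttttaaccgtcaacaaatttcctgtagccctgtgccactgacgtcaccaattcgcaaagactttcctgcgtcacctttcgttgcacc

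The Tcs5/CHMP2B stretch is chr3L:5139395-5139619 and its summit falls on base 100 of 225. The Atat/Shc stretch is chr3L:9426758-9427010 with the summit on base 133 of 253. The Art3/mRpS10 stretch is chr3R:15229408-15229665 with the summit on base 127 of 258. The CG7601/CIA30 stretch is chr3R:29736745-29736965 with the summit on base 108 of 221. The Reps/l(2)gd1 stretch is chr2L:11106645-11106943 with the summit on base 189 of 299. In each, the summit was at least 99 bp from the nearer end. TATAAA or its complement was near the summit in Tcs5/CHMP2B and on the summit in Atat/Shc, whereas Art3/mRpS10 and CG7601/CIA30 held none of the 5 words.

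At the strongest of these peaks the deposited signal, which is the peak caller's own value in units that no source used here gives, was 1166 in replicate 1 and 1018 in replicate 2. It lies between Tcs5, a kinase of the complex that modifies tRNA, and CHMP2B, a subunit of the membrane-cutting ESCRT-III machinery, 99 bp from the Tcs5 start and 125 bp from the CHMP2B start. The peak of Chro and Ssl1 had 1035 in replicate 1 and 921 in replicate 2. Chro encodes the interband protein Chromator and Ssl1 a subunit of the general transcription factor TFIIH, and this summit lies 80 bp inside Chro, beyond the 105 bp that separate the starts. Between Atat, a tubulin acetyltransferase, and Shc, an adaptor of receptor tyrosine kinases, the signal was 1119 in replicate 1 and 751 in replicate 2. All 3 were high in both replicates, with replicate 1 above replicate 2.

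Among the 20 divergent promoter peaks of highest signal that were found in both replicates' lists, the signal spanned 502 to 1166 in replicate 1 and 383 to 1018 in replicate 2. Replicate 1 was the higher in 19 of the 20, and in 481 of the 602 divergent promoter peaks that had a candidate peak in each replicate, so a single replicate's value is compared only within its own list. The exception among the 20 was CG5757/CG5098, with 502 in replicate 1 and 512 in replicate 2. Of these 20 summits, 17 lay between the starts and 15 lay between starts 201 to 400 bp apart. The nearer start was 73 to 171 bp away. Genes at these peaks included the mitochondrial ribosomal protein genes mRpS10, mRpS23 and mRpL23, the complex I assembly factor CIA30, the mitochondrial protease Lon, the cohesin partner pds5, the chromatin remodelling ATPase brm, the Golgi GTPase Arl1, fws, which encodes a subunit of the COG tethering complex, and Lamtor3, a subunit of the lysosomal Ragulator complex.

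**Figure D1:**
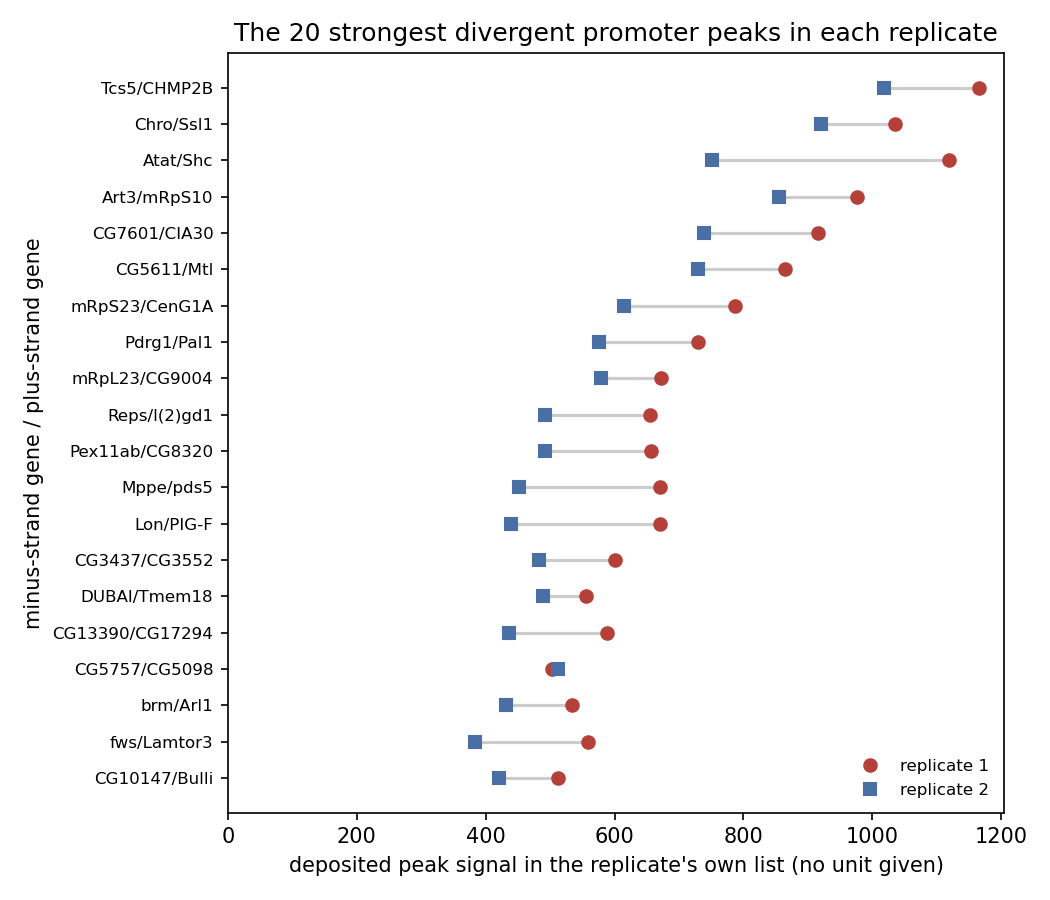
Deposited peak signal (x axis, no unit given) of the 20 strongest divergent promoter peaks, named by minus-strand and plus-strand gene (y axis), with circles for replicate 1 and squares for replicate 2. Replicate 1 spans 502 to 1166 and replicate 2 spans 383 to 1018, and replicate 1 is higher in every pair but CG5757/CG5098.

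Over all 614 divergent promoter peaks the pooled signal had a median of 162 (quartiles 102 and 287), against 134 (87.1 and 246) for one-strand promoter peaks, a ratio of 1.21. The ratio was 1.12 with replicate 1 alone and 1.08 with replicate 2 alone, and 1.06 among peaks with an IDR (irreproducible discovery rate) of 0.001 or less. The quartiles of the classes overlap widely. The weak end of the divergent promoter peaks was 14 peaks with a signal under 20, and all 14 overlap a stronger peak of the same list. The lowest 5 were Sf3b6/Tnpo (2.11), CG10584/Polr3E (2.49), NTPase/lilli (2.74), prd1/HisCl1 (2.74) and CG9062/CG13220 (3.41). Above them the next peak had 21.8. Because the replicates' peaks that overlap these 14 may belong to the stronger neighbour, no replicate value is given for them.

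Of the divergent promoter peaks, 407 (66.3%, 95% Wilson interval 62.5 to 69.9) overlapped a thresholded peak of both replicates by at least 1 bp, against a background of 53.2% over all peaks on the arms and 58.2% of one-strand promoter peaks. The difference from one-strand promoter peaks was 8.12 percentage points (Newcombe 95% interval 3.11 to 13.02). It was −3.30 points (−7.78 to 1.07) among peaks with an IDR of 0.001 or less, with the sign turned and an interval that includes 0. When peaks were taken from 1 replicate's list alone, it was 2.62 points (−2.30 to 7.46) with the list of replicate 1 and 3.74 points (0.062 to 7.28) with that of replicate 2. Peaks of a single list always overlap that list, so these values count overlap with the other replicate only. Of the pooled peaks, 88.4% of divergent promoter peaks against 79.2% of one-strand promoter peaks were found in the list of replicate 1, and 70.7% against 64.6% in that of replicate 2. Another 136 divergent promoter peaks were listed in replicate 1 only, 27 in replicate 2 only and 44 in neither. These intervals, and those below, cover counting error only, and neighbouring peaks and genes are not independent.

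Most summits lay between the starts. In 490 of the 614 (79.8%, 76.4 to 82.8) the summit had the minus-strand start on its left and the plus-strand start on its right. In 62 it lay inside the minus-strand gene and in 51 inside the plus-strand gene, and in 11 the transcription units overlapped at their starts. The starts were closer together where the summit lay inside a gene, with a median spacing of 86 bp (minus-strand gene) and 123 bp (plus-strand gene), against 306 bp where it lay between them. Starts were as near as 6 bp at CG7246/HP1b, which encodes the chromodomain protein HP1b, and at CG3032/CG4593, and 8 bp at SerRS/CG17260, which encodes seryl-tRNA synthetase. They were farthest apart at Hrb87F/B52 (780 bp), a pair of RNA-binding protein genes, followed by CG33062/Chd3 (729 bp), where Chd3 encodes a chromatin remodeller, and stwl/CG3919 (687 bp).

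The nearer start was a median of 99 bp from the summit (quartiles 60.3 and 131) and the farther one 195 bp (145 and 290). Counted as distance upstream, the median was 135 bp to the plus-strand start and 134.5 bp to the minus-strand start. The summit was 50 to under 200 bp upstream of the plus-strand start in 58.6% and of the minus-strand start in 55.9% of divergent promoter peaks, against 37.6% for the start of one-strand promoter peaks, whose median was 159 bp upstream. A summit 50 to 250 bp upstream of both starts was seen in 269 (43.8%). The rule itself keeps divergent summits near 2 starts at once, which narrows their range of distances. Of the 490 summits between starts, 104 lay in the part of the stretch next to the minus-strand start, 269 (54.9%) in the middle part and 117 in the part next to the plus-strand start, the 3 parts being equal in length.

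**Figure D2:**
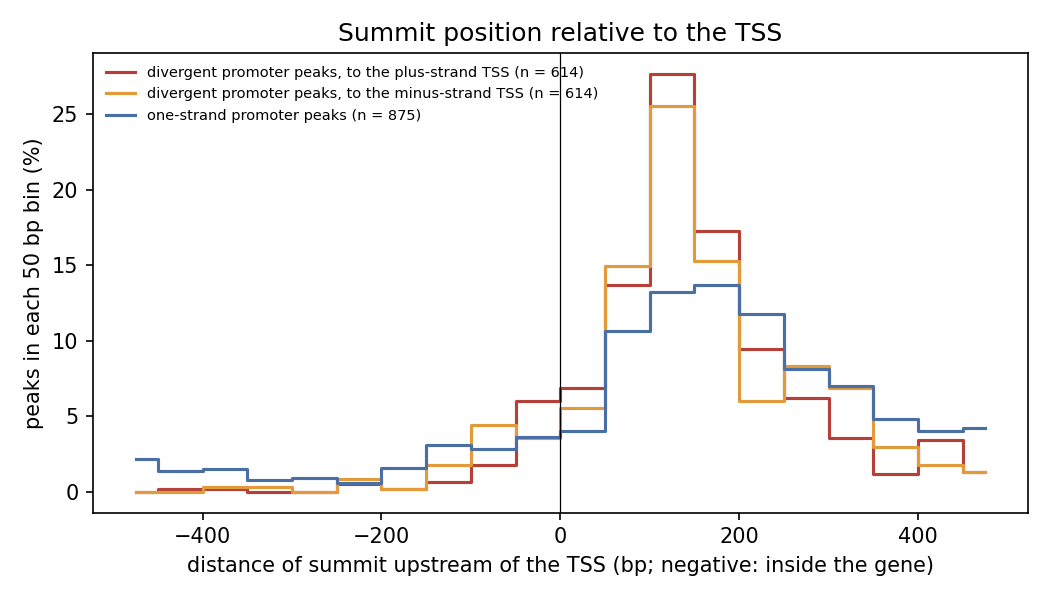
Share of peaks (y axis, percent) in 50 bp bins of the distance from summit to TSS (x axis, bp, positive upstream), for divergent promoter peaks measured to their plus-strand and minus-strand starts and for one-strand promoter peaks. The bin 100 to 150 bp upstream is the highest for both strands (27.7% and 25.6%), against 13.3% of one-strand promoter peaks in that bin.

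The nearer gene was on either strand at similar counts. The plus-strand gene was nearer in 318 divergent promoter peaks, the minus-strand gene in 293, and 3 summits were equally far from both. The median difference between the 2 distances was 88 bp, and the summits of the replicates were a median of 23.5 bp apart. Of the 602 peaks with a candidate in each replicate, the nearer gene was the same in the pooled data and in both replicates in 478 (79.4%). Where the 2 distances differed by 50 bp or more this held for 369 of 427, and where they differed by less it held for 109 of 175. At Art3/mRpS10, for example, the pooled summit was 126 bp from Art3 and 131 bp from mRpS10, and the replicates disagreed on which was nearer. They disagreed also at Pdrg1/Pal1 (171 and 175 bp) and at Lon/PIG-F (115 and 141 bp), but agreed at mRpS23/CenG1A, where the Arf regulator gene CenG1A was 100 bp away and mRpS23 was 392 bp away.

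At the 500 bp limit the peaks just inside were CG14968/ZnT63C (farther start at 495 bp, signal 238), CG43102/pasi1 (493 bp, 76.1) and rux/MCTS1 (492 bp, 95.7). The peaks just outside were CG1523/CG1647 (501 bp, 142), Sms/INPP5E (501 bp, 12.8) and CG3735/Taldo (504 bp, 96.5). In all, 582 divergent promoter peaks had 1 gene on each strand within 500 bp, 30 had 2 genes on a strand and 2 had more. Because 30 pairs hold more than 1 such peak, the 614 peaks stand at 584 distinct nearest pairs.

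The annotation holds 2667 head-to-head pairs of protein-coding genes with starts at most 1000 bp apart, and 635 of them (23.8%, 22.2 to 25.5) held a divergent promoter peak. The share differed by spacing. It was 24.3% at 1 to 50 bp, 19.8% at 51 to 100 bp, 21.2% at 101 to 150 bp and 16.8% (11.6 to 23.6) at 151 to 200 bp. At 201 to 250 bp it was 42.1% (36.1 to 48.4), at 251 to 300 bp 37.7%, at 301 to 350 bp 40.3% and at 351 to 400 bp 32.8%. Above that it was 23.2% at 401 to 500 bp, 16.8% at 501 to 600 bp and 4.80% at 601 to 800 bp. None of the 193 pairs spaced 801 to 1000 bp held one, which allows a share of up to 1.55% by a limit of 3 counts, and the Wilson interval ends at 1.95%.

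The step near 200 bp was seen in each replicate's own list. In replicate 1 the share was 41.3% of pairs spaced 201 to 250 bp and 16.1% of pairs spaced 151 to 200 bp. In replicate 2 it was 32.2% of pairs spaced 201 to 250 bp and 11.4% of pairs spaced 151 to 200 bp. Pairs spaced 201 to 400 bp held a peak in 363 of 942 (38.5%, 35.5 to 41.7), which was 22.8 points (19.2 to 26.3) more than pairs at all other spacings up to 1000 bp. This range was chosen after the shares by spacing were seen, so the difference and its interval describe a range picked from the same data. Since the stretch that lies within 500 bp of both starts shrinks as the spacing grows, part of the fall at wide spacing is built into the rule. With a fixed target instead, a summit within 150 bp of the midpoint, the share was 35.7% at 201 to 400 bp, against 15.5% at 1 to 200 bp, 15.2% at 401 to 600 bp and 2.37% at 601 to 1000 bp. At wide spacing a summit close to 1 start lies more than 150 bp from the midpoint. Part of the fall there is thus built into the fixed target too. By arm, pairs spaced 201 to 400 bp held a peak in 43.9% on 3R, 40.5% on 3L, 37.6% on 2L, 33.3% on X and 32.9% on 2R, and the intervals of the 5 arms overlap.

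**Figure D3:**
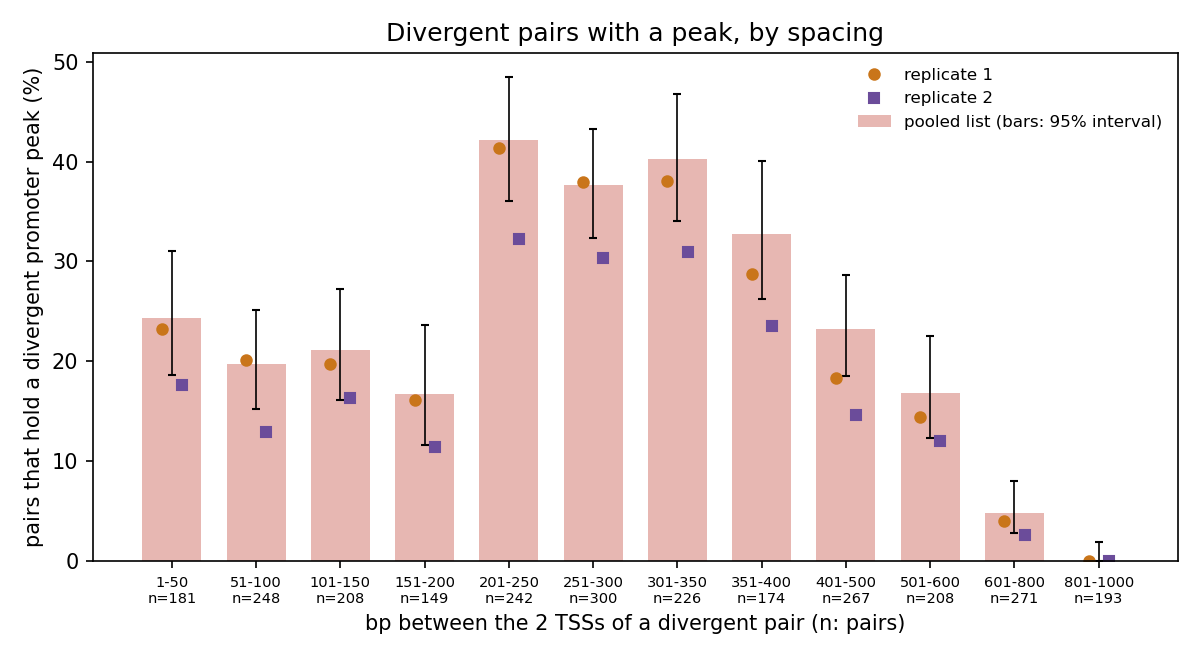
Share of divergent gene pairs that hold a divergent promoter peak (y axis, percent) by the spacing of their starts (x axis, bp, with the number of pairs in each bin), for the pooled list (bars, with 95% Wilson intervals), replicate 1 (circles) and replicate 2 (squares). The share is 42.1% at 201 to 250 bp and 16.8% at 151 to 200 bp in the pooled list, and both replicates show the same step.

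Peaks were also grouped by the spacing of their starts, wherever the summit lay. The median pooled signal was highest, at 188 (quartiles 121 and 327), in the 208 peaks with starts 201 to 300 bp apart. Of these 208, 73.6% were found in both replicates' lists. The other medians of pooled signal follow. The median was 164 at 1 to 100 bp, 149 at 101 to 200 bp, 162 at 301 to 400 bp and 141 above 500 bp. Among starts that do not overlap, the lowest median was 119 (85.1 and 223), in the 69 peaks at 401 to 500 bp, of which 55.1% were found in both lists. At 201 to 300 bp the median was 107 in replicate 1 and 86.6 in replicate 2, against 68.7 to 92.6 in replicate 1 and 56.2 to 76.2 in replicate 2 at those other spacings. In the 11 peaks with overlapping starts the median was 108 in the pooled list, 69.4 in replicate 1 and 52.4 in replicate 2. The quartile ranges overlap.

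To describe sequence, 13 words were counted on both strands in 201 bp centred on each summit. The words were chosen with earlier results of these data known, so their differences and intervals are description only. Windows of the same length were taken at one-strand summits and at the midpoints of 1958 divergent pairs without a peak. In all word counts, the pairs without a peak also had no summit of any pooled peak within 500 bp of the midpoint. TATCGATA contains CGATA, so windows with the DRE also count for the BEAF word; no other word contains another. Windows had a median GC content of 32.8% at divergent promoter peaks, 35.3% at one-strand peaks and 33.8% at pairs without a peak.

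CATCNCTA, the core of Ohler motif 7, was found at 77 of the 614 divergent summits (12.5%, 10.2 to 15.4), against 5.60% of one-strand summits and 4.55% of pairs without a peak. The difference was 6.94 points (3.99 to 10.1) from one-strand summits and 7.995 points (5.40 to 11.0) from pairs without a peak. With midpoint windows in pairs with a peak too, the difference from pairs without a peak was 3.80 points (1.64 to 6.35). Windows were not matched for distance to a start, a median of 99 bp (nearer start) at divergent and 189 bp at one-strand summits. The part of that distance was not tested. CATCNCTA was at 12.3% of the divergent summits of replicate 1 and 11.9% of those of replicate 2. The word did not sit on the summit. Its occurrences were a median of 74 bp away, and within 50 bp of the summit it was found at 2.44% of divergent and 2.51% of one-strand peaks. CAGCCCTG was found at 4.72% of divergent summits, against 2.40% of one-strand summits and 1.89% of pairs without a peak. The difference from one-strand summits was 2.32 points (0.44 to 4.47), and its interval includes 0 in the conservative pooled list (1.58, −0.25 to 3.66), in the list of replicate 1 (1.20, −0.82 to 3.40) and in that of replicate 2 (1.69, −0.31 to 4.01).

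Since summit windows and midpoint windows sample different parts of a promoter, the whole stretch from start to start was also searched, in pairs of the same range of 201 to 400 bp. Both this search and the range were added after the data were seen. Of 363 pairs with a peak, 66 (18.2%, 14.6 to 22.5) held CATCNCTA, against 32 of 575 pairs without a peak (5.57%, 3.97 to 7.75). The stretches were alike in length, with medians of 285 bp with and 291 bp without a peak, and in GC content, at 33.9% with and 33.8% without. The difference was 12.6 points (8.38 to 17.2), and it was 12.7 points with the list of replicate 1 and 13.4 points with that of replicate 2. In the bound stretches the word lay a median of 26 bp (quartiles 16 and 53) from the nearer start. CAGCCCTG was found in 8.54% of stretches with a peak and 3.65% of those without, a difference of 4.89 points (1.80 to 8.44). CAGCNCTA, the variant core, was found in 6.61% with and 3.48% without, a difference of 3.13 points (0.32 to 6.40) that included 0 with the list of replicate 1. CAGCTG, an E-box, was found in 22.6% with and 16.9% without, a difference of 5.72 points (0.55 to 11.1). GTATTTTT, a core of Ohler motif 6, went the other way, at 9.09% with a peak and 16.9% without, a difference of −7.78 points (−11.9 to −3.35). It was −7.16 points with replicate 1 and −6.51 points with replicate 2.

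Further stretches are printed for the 3 strongest divergent promoter peaks after Atat/Shc that hold CATCNCTA, under the same conditions and with the same capitals. Of the 4 occurrences of the word in them, 3 lie toward an end of the stretch, and the first in CG10147/Bulli lies about midway between an end and the summit.
CG10147/Bulli: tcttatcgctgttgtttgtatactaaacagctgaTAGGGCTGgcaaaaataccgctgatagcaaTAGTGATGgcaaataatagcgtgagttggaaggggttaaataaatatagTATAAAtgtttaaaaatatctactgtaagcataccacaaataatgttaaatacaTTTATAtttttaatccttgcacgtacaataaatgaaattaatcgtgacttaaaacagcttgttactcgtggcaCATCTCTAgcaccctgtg
elm/MED27: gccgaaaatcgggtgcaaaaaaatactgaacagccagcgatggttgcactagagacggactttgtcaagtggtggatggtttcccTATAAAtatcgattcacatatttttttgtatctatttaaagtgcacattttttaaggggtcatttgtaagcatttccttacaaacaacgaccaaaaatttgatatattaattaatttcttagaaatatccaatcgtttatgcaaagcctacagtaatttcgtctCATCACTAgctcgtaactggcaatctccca
CG1105/CG1965: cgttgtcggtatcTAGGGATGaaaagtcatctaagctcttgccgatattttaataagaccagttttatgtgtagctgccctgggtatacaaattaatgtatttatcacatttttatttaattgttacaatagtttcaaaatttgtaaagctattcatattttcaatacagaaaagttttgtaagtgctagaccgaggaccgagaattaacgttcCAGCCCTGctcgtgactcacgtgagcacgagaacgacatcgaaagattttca

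The CG10147/Bulli stretch is chr3L:6488424-6488681 with the summit on base 145 of 258, and Bulli encodes a subunit of the complex that activates the endosomal GTPase Rab7. Its signal was 512 in replicate 1 and 421 in replicate 2, and CATCNCTA or its complement starts at bases 65 and 241. The elm/MED27 stretch is chr3R:5654861-5655139 with the summit on base 149 of 279, and MED27 encodes a Mediator subunit. Its signal was 393 in replicate 1 and 262 in replicate 2, and the word starts at base 250. The CG1105/CG1965 stretch is chr3R:7067136-7067401 with the summit on base 123 of 266. Its signal was 346 in replicate 1 and 258 in replicate 2, and the word starts at base 14. Over all divergent promoter peaks the median pooled signal was 169 in the 77 with the word at the summit window and 162 in the 537 without it, with overlapping quartiles.

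The DRE was at 8.79% of divergent summits, 3.09% of one-strand summits and 9.09% of pairs without a peak. In whole stretches the DRE was in 19.8% with a peak and 17.7% without. The BEAF word CGATA was at 43.8% of divergent summits, 28.1% of one-strand summits and 41.9% of pairs without a peak. With both limited to spacings of 201 to 400 bp it was at 48.2% of divergent summits and 37.4% of pairs without a peak, a difference of 10.8 points (4.10 to 17.4). In whole stretches of pairs spaced 201 to 400 bp it was in 65.0% with a peak and 59.7% without, a difference of 5.36 points whose interval includes 0 (−1.03 to 11.6). GGTCACACT, the core of Ohler motif 1, was at 2.61% of divergent summits, 0.69% of one-strand summits and 5.16% of pairs without a peak. With both limited to 201 to 400 bp it was at 2.42% of divergent summits and 2.43% of pairs without a peak, a difference of −0.011 points (−2.01 to 2.48). GAGAG was at 14.8% of divergent summits, 23.3% of one-strand summits and 14.0% of pairs without a peak.

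TATAAA differed by where the window was placed. It was at 48.4% of divergent summits, 33.1% of one-strand summits and 37.3% of pairs without a peak. With both limited to spacings over 200 to 400 bp it was at 52.1% of divergent summits and 41.6% of pairs without a peak. That difference was 10.6 points (3.81 to 17.2), with a median GC content of 32.3% and 30.3% in that order. Within 50 bp of the summit or midpoint, at all spacings, divergent summits were 8.02 points (4.13 to 12.1) above pairs without a peak. The median GC content there was 29.7% at divergent summits and 33.7% at pairs without a peak. The part of base composition in that difference was not tested. In whole stretches TATAAA was in 55.4% with a peak and 50.8% without, a difference of 4.59 points whose interval includes 0 (−1.97 to 11.1). In the stretches with a peak it lay a median of 104 bp from the nearer start, farther in than CATCNCTA. Among divergent promoter peaks it was in 53.9% of the 154 of highest signal and 41.6% of the 154 of lowest signal, where the median GC content was 31.3% and 35.1%, and the part of base composition in this was not tested. The words CAGGTAG, the Zelda site, and CACGTG were at 0.81% and 1.95% of divergent summits, and CGGTATG at 0.81%.

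Ranked without a list, the 40 words of 8 bases most in excess at divergent summits over their flanks, 500 bp to the right, held A and T alone. The flanks lie mostly in gene bodies and had a median GC content of 50.2%. Ranked against pairs without a peak, 38 of 40 words were A and T alone, and CATCTCTA, a form of the Ohler 7 core, came at rank 12, with 6.03% of divergent summits and 1.74% of pairs without a peak.

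**Figure D4:**
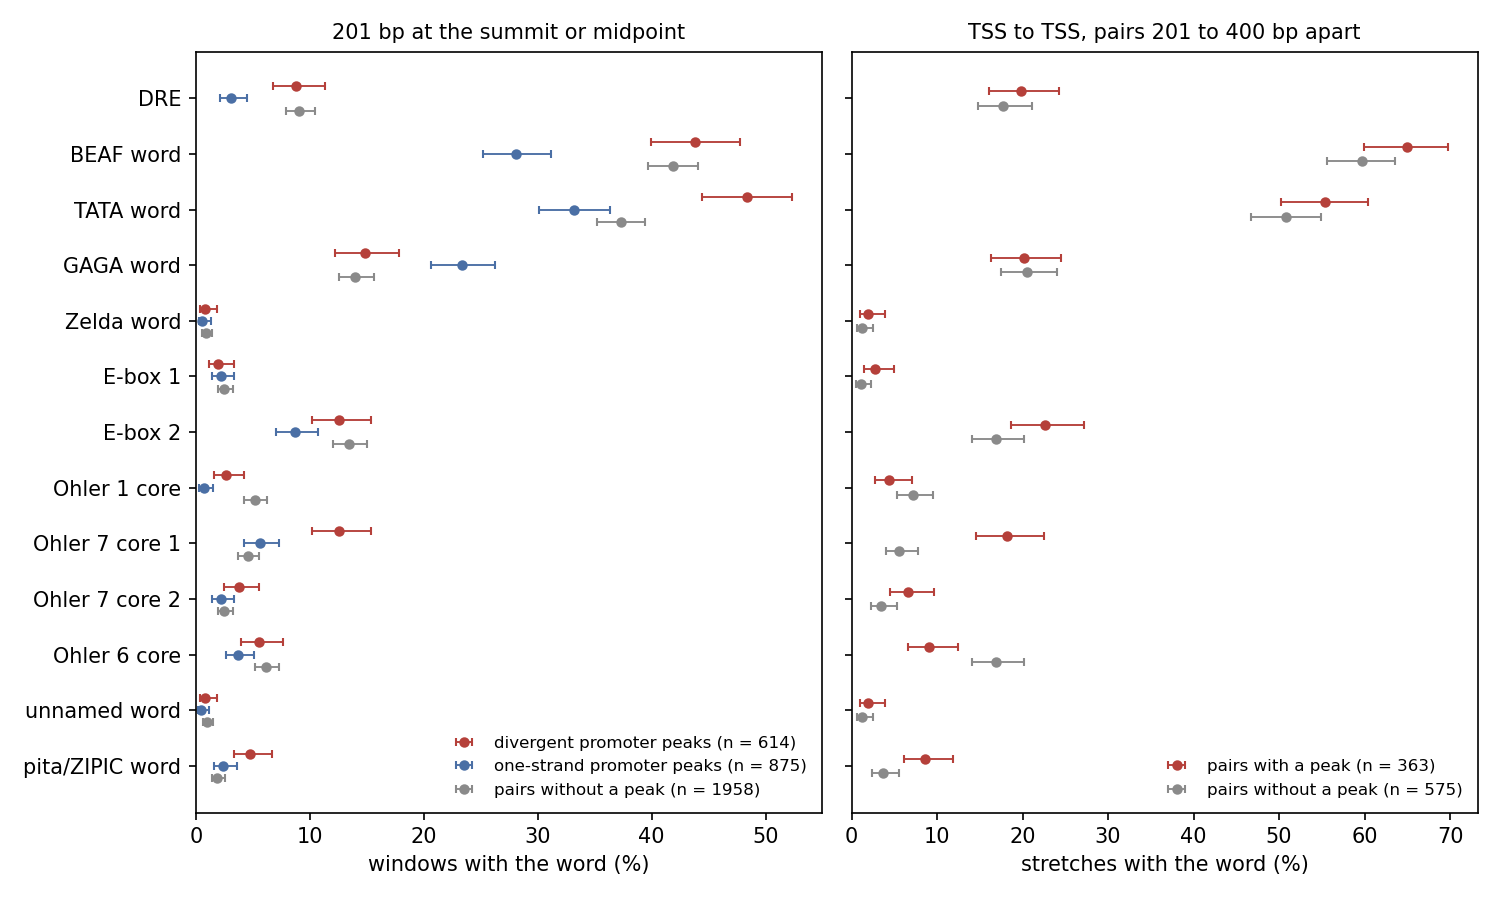
Share of sequences with each word (x axes, percent, with 95% Wilson intervals), with words by name (y axis). Left, 201 bp windows at divergent summits, one-strand summits and midpoints of pairs without a peak. Right, whole stretches of pairs spaced 201 to 400 bp with and without a peak. The Ohler 7 core CATCNCTA (core 1) is at 18.2% with and 5.57% without a peak on the right, while the DRE is at 19.8% and 17.7%.

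The genes at divergent promoter peaks were described with 19 lists of genes, counted over the 5052 protein-coding genes that belong to a head-to-head pair, of which 1201 (23.8%) had a peak in their pair. Genes of the cytosolic ribosome had one in 21 of 53 (39.6%). At RpL34b/CG8132 the signal was 304 in replicate 1 and 227 in replicate 2, at RpL32/CG7943 it was 232 and 184 in the same order, and at RpS27/Nup37 it was 184 and 139. Mitochondrial ribosomal protein genes had one in 20 of 59 (33.9%), the respiratory chain and ATP synthase in 14 of 46 (30.4%), and translation factors in 5 of 27 (18.5%). Aminoacyl-tRNA synthetases, which charge tRNAs, had one in 9 of 23, with the strongest at GluProRS/AP-1sigma (297 in replicate 1 and 269 in replicate 2). Enzymes of tRNA and rRNA modification had one in 10 of 29, among them Tcs5 and Elp5, a subunit of Elongator.

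Among genes of the nucleus, RNA polymerase subunits and general transcription factors had a divergent promoter peak in 25 of 64 (39.1%), including Ssl1, MED27 and Brf, the RNA polymerase III factor. Insulator and interband protein genes had one in 7 of 13, and the strongest after Chro were Cp190/CG4338 (338 in replicate 1 and 286 in replicate 2) and CG12974/pzg (242 and 270). Cp190 is a shared cofactor of insulator proteins. Polycomb and trithorax genes had one in 6 of 19, with brm, the methyltransferase gene E(z) (372 in replicate 1 and 340 in replicate 2) and its partner Su(z)12 (102 and 85.5) as the strongest. Splicing genes had one in 12 of 38, replication and repair genes in 12 of 45 and cell cycle genes in 9 of 30, where the strongest was aurA, the Aurora A kinase gene (131 in replicate 1 and 114 in replicate 2). Vesicle traffic and autophagy genes had one in 31 of 93, proteasome genes in 6 of 23, ubiquitin and COP9 genes in 8 of 30, chaperones in 7 of 24 and mitochondrial import in 2 of 8.

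Set against the background of 23.8%, most lists had an interval that includes it. The lists were chosen with earlier results of these data known. They were not matched for the spacing of their pairs, with which the share differed. The part of spacing in the shares of the lists was not tested. The pooled interval starts above the background for the cytosolic ribosome (27.6), the RNA polymerases and general factors (28.1), insulator and interband proteins (29.1) and vesicle traffic (24.6). In replicate 1 alone, where all divergent genes stood at 22.3%, those lists had 30.2%, 32.8%, 46.2% and 34.4% in that order. In replicate 2 alone, where all stood at 17.4%, they had 28.3%, 28.1%, 30.8% and 25.8%. The interval of a single replicate includes that replicate's background for the cytosolic ribosome in replicate 1 (16 of 53 genes, 19.5 to 43.5) and for insulator and interband proteins in replicate 2 (4 of 13, 12.7 to 57.6). For aminoacyl-tRNA synthetases it starts above the background in replicate 2 alone (8 of 23, 18.8 to 55.1). For mitochondrial ribosomal proteins it does so in replicate 1 alone (20 of 59, 23.1 to 46.6). Genes known by an annotation number only had a peak in 357 of 1757 (20.3%, 18.5 to 22.3). Of 35 patterning and Hox genes, only 1 belongs to a head-to-head pair at all, and it had no peak.

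**Figure D5:**
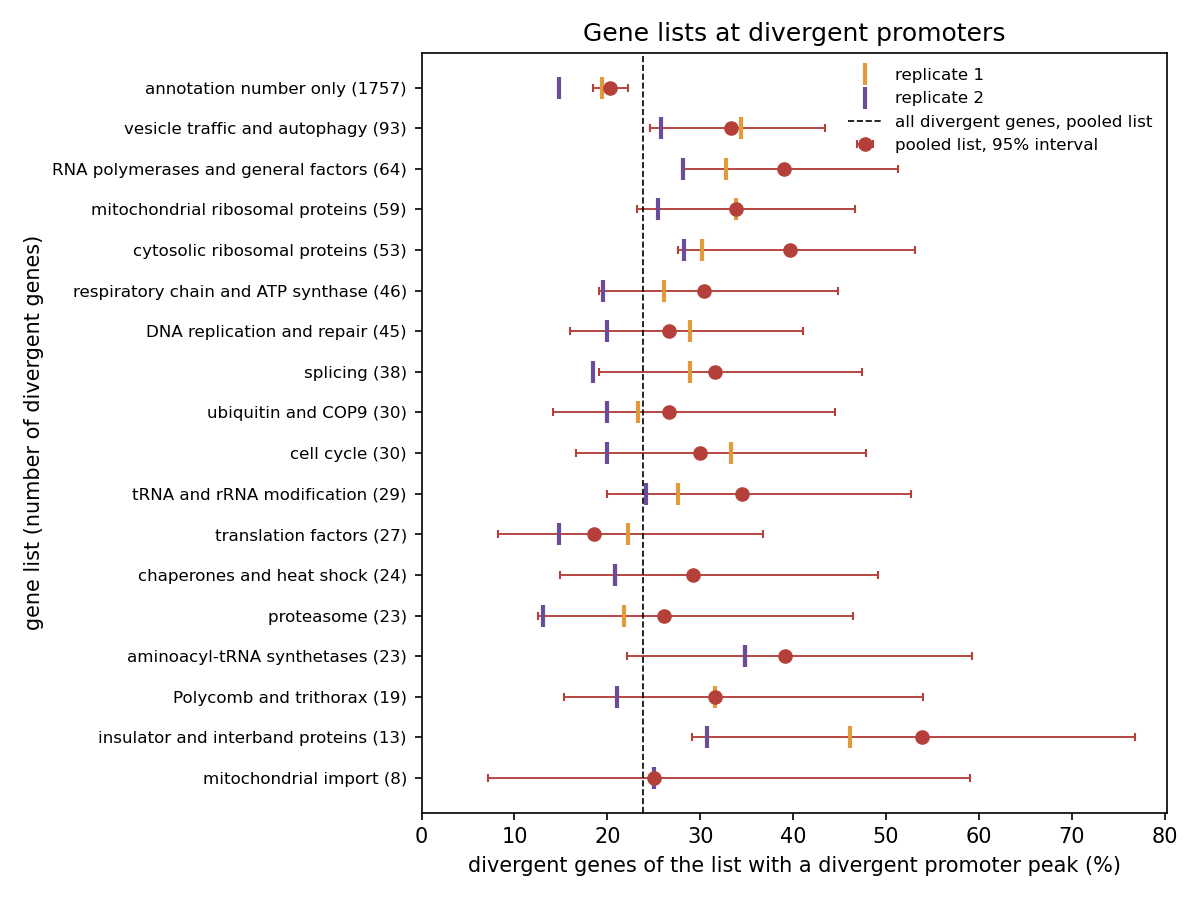
Share of the divergent genes of each list that have a divergent promoter peak in their pair (x axis, percent) for the pooled list (points, 95% Wilson intervals), replicate 1 and replicate 2 (ticks), with the number of divergent genes of each list (y axis). The dashed line is the share over all divergent genes in the pooled list, 23.8%; the list with 1 divergent gene is not drawn.

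A listed gene stood on at least 1 side of 194 divergent promoter peaks (31.6%) and on both sides of 22, and in 3 of these both genes were of the same list. Those were Atg7/Sec6, an autophagy enzyme and an exocyst subunit (187 in replicate 1 and 148 in replicate 2), Cog3/Sec5, of the COG and exocyst tethering complexes (84.8 and 37.5), and RPA1/Mcm2, a single-strand DNA binding protein and a subunit of the replicative helicase (79.3 and 73.0). The other 19 joined different lists, as mRpL39/Prosbeta2 joins the mitochondrial ribosome and the proteasome (101 in replicate 1 and 84.1 in replicate 2), Nelf-E/RpL14 a pausing factor and the ribosome (121 and 65.0), and Cdk1/mRpS7 the mitotic kinase and the mitochondrial ribosome (73.1 and 44.5). Counted over head-to-head pairs, both genes were listed in 21 of 635 pairs with a peak (3.31%, 2.17 to 5.003), against 28 of 2032 without (1.38%, 0.96 to 1.98). Both were of the same list in 3 of the 635 pairs with a peak (0.47%, 0.16 to 1.38) and in 5 of the 2032 without (0.25%, 0.11 to 0.57), where the intervals overlap. At least 1 gene was listed in 29.4% of pairs with a peak and 20.4% of those without. Pairs with and without a peak were not matched for spacing in these counts. The quartiles of spacing were 199 and 362.5 bp with a peak and 156 and 562 bp without. The part of spacing was not tested. In 58 divergent promoter peaks both genes were known by number only, and in 237 one was.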

How the data were processed

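ChIP-seq peaks of 2 biological replicates were analysed. The authors deposited, per the file headers, dm6 ranked and IDR-thresholded peak lists for each replicate and for the pooled replicates. Which aligner and peak caller were used is not given in the sources used here. Each peak's deposited signal is the authors' own, on an unstated scale, and was used only to describe and rank peaks within a list. The −log10 of the IDR stands in the deposited ranked lists, and no thresholded peak had an IDR above 0.01. Read depth is not known here. The intervals reflect how many peaks, genes or pairs were counted, not the spread between the 2 replicates.

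From these lists, the summit of each peak was set against 13968 protein-coding genes of the Ensembl 115 annotation of the same assembly, with every annotated transcript start as a TSS. Sequence came from the RefSeq copy of dm6. A replicate's value is that of the candidate peak overlapping by at least 1 bp whose summit is nearest. Shares carry 95% Wilson intervals and differences Newcombe intervals, for counting error only; no significance test was run, since there is 1 group. No label says more of how the replicates were collected, so their spread may be technical. The pooled list is built from both replicates, so the 3 lists are not independent.

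The divergent promoter peaks, gene lists and words were chosen with earlier results of these data known. Genes named are those of the 20 strongest peaks present in both replicates' lists, the 3 highest of each gene list, the 5 lowest, the 3 on either side of the 500 bp limit and the 3 pairs with the closest and farthest starts; the pairs with both genes listed were named after their values were seen. Alternatives were the conservative list, each replicate's list, an IDR of 0.001, windows of 250 and 1000 bp, 1 TSS a gene, merged peaks, summit overlap, word windows of 50 bp and a pair spacing of 500 bp. Searching whole stretches between starts, 201 to 400 bp spacing, the midpoint window of 150 bp and ranking words of 8 bases against pairs without a peak were added after seeing the data. Analyses used Python 3.11.15, pandas 2.3.3, numpy 2.4.6 and scipy 1.17.1, and the counting steps were tested on simulated data.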

Additional observations from a re-analysis of the deposited data

How the results depend on the processing

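Of 56 values of the summary results under their alternatives, 41 kept their direction and, where there was an interval of a difference, its side of 0, or otherwise moved by less than the replicates' SD (counts, by at most 1.5 times). The number of divergent promoter peaks was 446 to 586 in single replicates' lists and 398 with a window of 250 bp, against 614. The share of summits between the starts was 78.5% to 84.3% in single lists and 74.0% with 1 TSS a gene. In single lists, where only overlap with the other replicate could fail, the share found in both replicates' lists was 72.4% to 92.4%. It was 83.1% at an IDR of 0.001 or less. Its difference from one-strand promoter peaks was 2.62 to 3.74 points in single lists and −3.30 points at an IDR of 0.001 or less, where fewer peaks enter, and 14.5 points with a window of 250 bp. The ratio of median signals was 1.08 to 1.12 in single lists, 1.06 at an IDR of 0.001 or less and 1.47 with a window of 250 bp. The share of pairs with a peak was 17.5% to 22.4% in single lists, 29.4% for starts at most 500 bp apart and 20.3% with a summit within 150 bp of the midpoint. Of 13 words, 8 had an interval of the difference from one-strand summits that excluded 0, 7 in each single list and 2 with 50 bp either side of the summit. CAGCTG and CAGCCCTG were not among the 7 in either single list, nor was GGTCACACT in that of replicate 2. GTATTTTT was among them in both, higher at divergent summits by 2.37 points in the list of replicate 1 and 3.34 points in that of replicate 2. CAGCNCTA was among them in that of replicate 2, higher by 2.42 points. With that narrower window the sign turned for CATCNCTA (−0.071 points), CAGCNCTA (−0.21) and CAGCTG (−0.56). For CAGGTAG it turned to −0.12, −0.29 and −0.017 points, and for CACGTG to 0.14, 0.62, 0.87 and 1.09 points, all within counting error. The causes were not tested. The difference between pairs spaced 201 to 400 bp and others was 17.3 to 23.8 points under every alternative run, all of them set after the range was chosen. No paired analysis was possible because there is 1 group, so no replicate numbers are shared between groups.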
